A study of Mus musculus with 6 samples.

Results

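The semaphorin and plexin genes examined here were 10 genes of vascular guidance. They were chosen by name and not by their values, although earlier results of these data were known. They comprised the semaphorins Sema3a, Sema3c, Sema3e, Sema3f, Sema3g, Sema6a and Sema6d and the plexins Plxnd1, Plxna2 and Plxnb2. All 10 were measured, among 18193 genes in all, by 26 probe sets whose platform annotation named that gene alone. The probe set with the highest mean over all arrays stood for a gene, and the others are given beside it. RNA came from CD31-sorted endothelial cells of mammary glands of FVB/N mice aged 9 weeks, 1 Affymetrix array per sample. The 3 control samples had the genotype PyMT;Ets2db/loxP, and the 3 deleted samples the genotype PyMT;Fsp-cre;Ets2db/loxP. Both groups carried PyMT, the polyoma middle T oncogene expressed in mammary epithelium, and in every cell 1 Ets2db allele, a conventional knockout of the Ets2 DNA-binding domain. Fsp-cre, a Cre recombinase driven by the promoter of fibroblast specific protein 1, removed the remaining Ets2 allele in fibroblasts. Controls were taken to carry PyMT from their titles and genotypes, although a source field describes them as lacking an oncogene. The comparison addressed whether Ets2 in tumor fibroblasts alters expression in the neighboring endothelium.

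Semaphorins are guidance ligands first known from growing axons and later from blood vessels. Those of class 3 are secreted and mostly bind a neuropilin, which pairs with a plexin that carries the signal into the cell, whereas Sema3e binds plexin D1 directly. Semaphorins of classes 4 to 6 span the membrane, and those of class 6 bind A-type plexins. The cytoplasmic part of plexins acts on small GTPases of the Ras and Rap families and loosens integrin adhesion, so that many of these ligands repel endothelial cells or restrain sprouting.

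None of the 10 genes separated control from deleted samples, and none passed the test of the difference. Every difference is given on the log2 scale of the deposited signal, negative where deleted samples were lower. The 10 differences ran from -0.36 for Sema3c to 0.26 for Plxnd1, 5 below and 5 above 0, with a median of -0.04 beside 0.00 over all genes. No gene of the 10 reached an adjusted p under 0.05 with limma, the smallest being 0.9999, and none of all 45037 probe sets did so (0%). At an unadjusted p under 0.05 there was also none of the 10, beside 1.79% of all genes. The groups overlapped for all 10 genes and all 26 probe sets, whereas 6.07% of all genes had groups without overlap, 2.70% lower and 3.36% higher in deleted samples.

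The arrays nevertheless bounded how large a change could be. The 95% intervals of all 10 genes lay within a 2-fold change in either direction, as did those of 23 of the 26 probe sets and 89.5% of all genes. For 4 of the 10 genes, Sema3e, Sema3g, Sema6d and Plxna2, the interval lay within a 1.5-fold change, beside 9831 of all 18193 genes. This holds for their brightest probe sets only. Sema3e, Sema6d and Plxna2 each had a dimmer probe set whose interval passed a 2-fold change. Those intervals were -1.15 to 0.49, -0.89 to 1.06 and -0.50 to 1.24. The dim signal of Sema3e is mostly background, however, so its interval bounds no change in the transcript. These intervals are not adjusted for the number of genes. The median within-group SD of the 10 genes was 0.295, beside 0.223 over all genes, and the median size of their differences was 0.1, beside 0.113. A difference larger than the within-group SD was seen only for Sema3c of the 10, which is 10% of them, beside 21% of all genes.

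**Figure D1:**
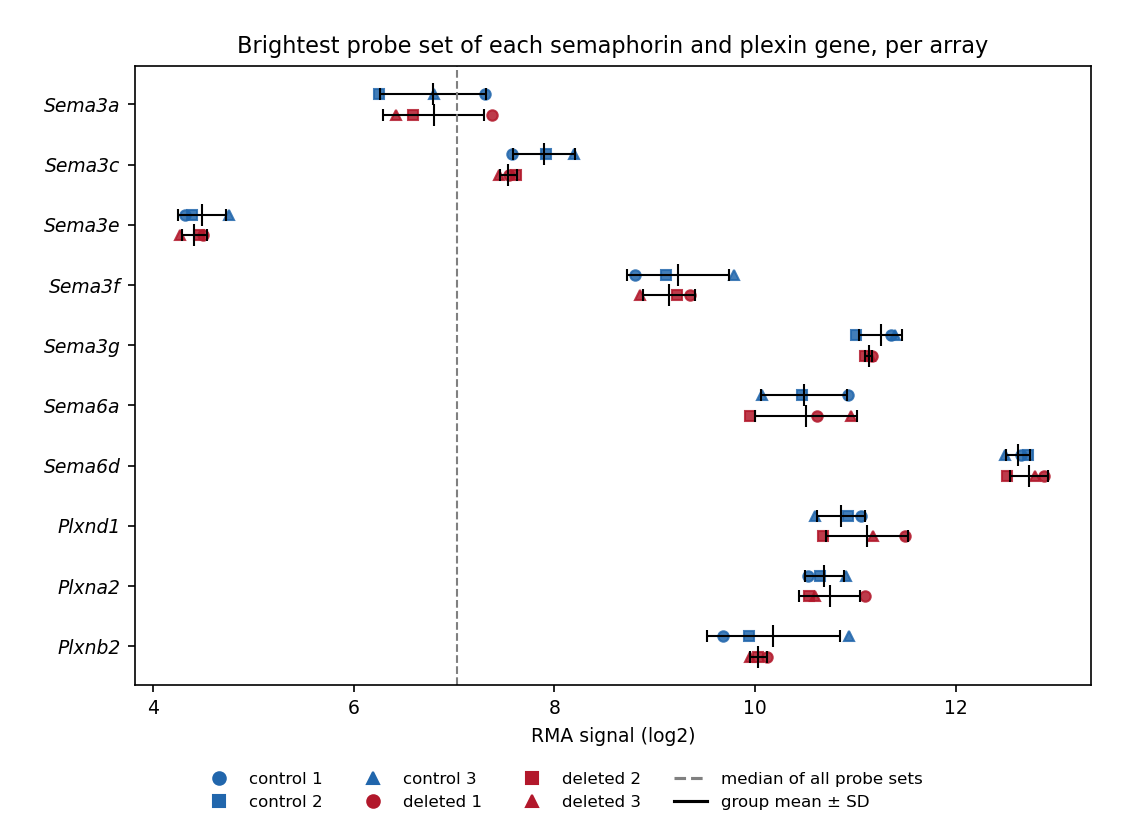
RMA signal (log2, horizontal axis) of the brightest probe set of each of the 10 genes, where blue is control, red is deleted, circles, squares and triangles are replicates 1, 2 and 3, and black marks give a group's mean ± SD (n = 3). Blue and red overlap in every row, and only Sema3e lies wholly below the median of all probe sets, 7.03 (dashed line).

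The sorted samples carried endothelial transcripts together with RNA of other cells. Pecam1, which encodes CD31, read 10.83 to 11.93 over the 6 arrays and the junctional cadherin Cdh5 10.56 to 11.47. The lymphatic endothelial factor Prox1 read 9.20 to 10.72. Of other cells, the epithelial adhesion molecule Epcam read 11.9997 to 12.54, the leukocyte phosphatase Ptprc 8.30 to 9.40 and the fibroblast receptor Pdgfra 8.01 to 9.04. All of these were above the median signal of 7.03, while the macrophage marker Adgre1 read 6.07 to 8.24. Signals of different probe sets do not rank the abundance of transcripts. Of 10 macrophage markers 10 were lower in deleted samples, with a median of -0.73, and of 11 fibroblast markers 11, with a median of -0.59. Averaged relative to the mean of all arrays, macrophage markers ran from 0.09 to 0.79 in control and from -0.65 to -0.12 in deleted arrays, and fibroblast markers from 0.13 to 0.64 and from -0.48 to -0.27. The averages overlapped for endothelial markers, at -0.28 to 0.04 and -0.13 to 0.22, for epithelial markers, at -0.04 to 0.22 and -0.27 to 0.12, for lymphatic markers, at -0.20 to 0.62 and -0.60 to -0.04, and for the arterial, pericyte, pan-leukocyte and nerve lists. No marker of any list reached an adjusted p under 0.05 with limma. At an unadjusted p under 0.05 there were 6 of 10 macrophage and 6 of 11 fibroblast markers, beside 1.79% of all genes. Groups without overlap numbered 6 and 5, beside 6.07%. The paper had already listed C1qb, Col14a1, Ogn and Dpep1 as changed in these same samples. Their part in these counts and medians was thus fixed in advance. All 6 lymphatic and all 7 pan-leukocyte markers also had lower means in deleted samples, with medians of -0.50 and -0.48. Fewer cells of a type and less RNA per cell cannot be told apart in such samples, and which cells gave the semaphorin signal was not tested. Ets2 itself read 14.26 to 14.50 and differed by 0.02, but the deletion was aimed at other cells, so this does not check the labels.

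Sema3g, a class 3 semaphorin of arterial endothelium that acts through neuropilin-2, was bright and varied little. Its only probe set, 1435361_at, read 11.36, 11.0019 and 11.39 in control replicates 1, 2 and 3, and 11.16, 11.10 and 11.14 in deleted replicates 1, 2 and 3. The deleted arrays thus fell inside the range of the control arrays. Means were 11.25 ± 0.22 and 11.13 ± 0.03 (SD, n = 3 each), so that deleted arrays averaged -0.12 relative to control (SE 0.15, 95% interval -0.48 to 0.25). This was -0.24 without control replicate 2, where the groups no longer overlapped (as for 11.9% of all genes), -0.06 without control replicate 1 and -0.05 without control replicate 3. Arterial endothelial markers differed by a median of 0.03 over 9 genes.

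Sema3c, a secreted ligand known for its part in heart and vessel development, had the largest difference of the 7 semaphorins among the 10 genes. Its brightest probe set, 1429348_at, read 7.58, 7.92 and 8.20 in control and 7.55, 7.62 and 7.45 in deleted replicates. Control replicate 1 lay between the deleted values, and only control replicates 2 and 3 exceeded them. The means of 7.90 ± 0.31 and 7.54 ± 0.09 (SD, n = 3 each) differed by -0.36 with an SE of 0.18 and a 95% interval from -0.79 to 0.08, a ratio of 0.780. The unadjusted p from limma was 0.0923, the smallest of the 10 genes, and the adjusted p 0.9999. A second, dimmer probe set read 6.48, 6.01 and 5.51 in control and 6.74, 5.66 and 5.77 in deleted replicates and differed by 0.06. The pair of Sema3c probe sets thus pointed in opposite directions, and the brighter one differed by -0.21 without control replicate 3 and by -0.52 without control replicate 1. In the latter setting the groups did not overlap, as for 16.5% of all genes, and limma gave an unadjusted p of 0.0244 and an adjusted p of 0.9885. The lower macrophage and fibroblast markers of deleted samples went in the direction of the brighter probe set, and their part in its difference was not tested.

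Sema3a, the ligand of neuropilin-1 from which the collapse of axon growth cones was first described, varied widely within each group. The brightest probe set, 1420416_at, read 7.31, 6.25 and 6.80 in control and 7.37, 6.59 and 6.42 in deleted replicates. Replicate 1 was the highest array of either group. The means were 6.79 ± 0.53 and 6.80 ± 0.51 (SD, n = 3 each), and the difference of 0.01 had a 95% interval from -0.79 to 0.81. It became -0.28 without deleted replicate 1 and 0.27 without control replicate 1. The other 2 probe sets were dimmer, between 4.10 and 5.34 on all arrays, and differed by -0.11 and -0.02.

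Sema3e, which signals through plexin D1 and repels endothelial cells, was dim in both groups. Its brightest probe set, 1427673_a_at, read 4.32, 4.39 and 4.76 in control and 4.50, 4.46 and 4.27 in deleted replicates, well under the median signal of 7.03, where RMA values hold mostly background. The difference was -0.08 (95% interval -0.48 to 0.31), which became 0.05 without control replicate 3. The other 3 Sema3e probe sets differed by -0.33, -0.23 and -0.19, so all 4 were lower in deleted samples, each with overlapping groups.

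Sema3f, a ligand of neuropilin-2 that acts on blood and lymphatic vessels, followed single arrays rather than the groups. The brightest probe set, 1438947_x_at, read 8.80, 9.11 and 9.79 in control and 9.35, 9.22 and 8.85 in deleted replicates. Control replicate 3 was the highest array and control replicate 1 the lowest. The difference of -0.09 (95% interval -0.74 to 0.56) turned to 0.19 without control replicate 3. The other 2 probe sets differed by 0.01 and 0.09.

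Sema6d, a transmembrane semaphorin that binds plexin A1, was bright and steady at its best probe set. On 1453055_at it read 12.65, 12.72 and 12.49 in control and 12.88, 12.51 and 12.79 in deleted replicates. Deleted replicate 2 fell among the controls, while deleted replicates 1 and 3 lay above all of them. The means of 12.62 ± 0.12 and 12.73 ± 0.19 (SD, n = 3 each) differed by 0.11 with a 95% interval from -0.26 to 0.48. The difference was 0.03 without deleted replicate 1, 0.04 without control replicate 3 and 0.22 without deleted replicate 2, where the groups no longer overlapped (as for 19.1% of all genes). The 3 dimmer probe sets differed by 0.08, 0.14 and 0.11, so all 4 pointed up, but within much wider spreads. One of them read 10.06, 10.24 and 8.87 in control replicates and another 9.13, 9.14 and 10.09, so control replicate 3 was the lowest array for the first and the highest for the second.

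Sema6a, a transmembrane ligand of plexins A2 and A4, varied far more within groups, with an SD of 0.473, than between them. Its brightest probe set, 1436458_at, read 10.93, 10.47 and 10.06 in control and 10.61, 9.95 and 10.95 in deleted replicates. The highest and the lowest array were both deleted ones. A difference of 0.02 had a 95% interval from -0.72 to 0.76, and it ran from -0.21 without deleted replicate 3 to 0.30 without deleted replicate 2. The other 2 probe sets differed by 0.08 and -0.05.

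Plxnd1, the endothelial plexin that receives Sema3e, had the largest difference of the 3 plexins among the 10 genes. Its only probe set, 1451475_at, read 11.05, 10.93 and 10.59 in control and 11.49, 10.68 and 11.18 in deleted replicates. Deleted replicates 1 and 3 exceeded every control array, but deleted replicate 2 fell below control replicates 1 and 2. The means were 10.86 ± 0.24 and 11.12 ± 0.41 (SD, n = 3 each), and the difference was 0.26 (SE 0.24, 95% interval -0.30 to 0.82), or a ratio of 1.20. It shrank to 0.07 without deleted replicate 1 and grew to 0.48 without deleted replicate 2. The endothelial markers were highest in deleted replicates 1 and 3, at 0.22 and 0.14, and lowest in control replicate 3, at -0.28, as was Plxnd1, and their part in this difference was not tested.

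Plxna2, a receptor of class 6 and, with neuropilins, of class 3 semaphorins, differed by 0.05 at its brightest probe set. On 1455037_at it read 10.52, 10.65 and 10.90 in control and 11.09, 10.54 and 10.60 in deleted replicates, with a 95% interval of the difference from -0.41 to 0.52. Deleted replicate 1 was the highest array, and without it the difference was -0.12. The other 3 probe sets differed by 0.37, 0.22 and -0.06. The first of them read 10.06, 9.89 and 8.74 in control and 9.93, 9.57 and 10.29 in deleted replicates, so its difference rested mainly on the low value of control replicate 3.

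Plxnb2, a widely expressed receptor of class 4 semaphorins, was set by 1 array. Its only probe set, 1416683_at, read 9.68, 9.94 and 10.94 in control and 10.12, 10.03 and 9.94 in deleted replicates. The deleted arrays lay within 0.17 of each other, between the control extremes, and control replicate 3 stood well above the rest. The difference of -0.15, with a 95% interval from -0.89 to 0.59, turned to 0.22 without control replicate 3, and the groups then no longer overlapped. In that setting 13.1% of all genes had groups without overlap, so 1 of 10 is close to the background.

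**Figure D2:**
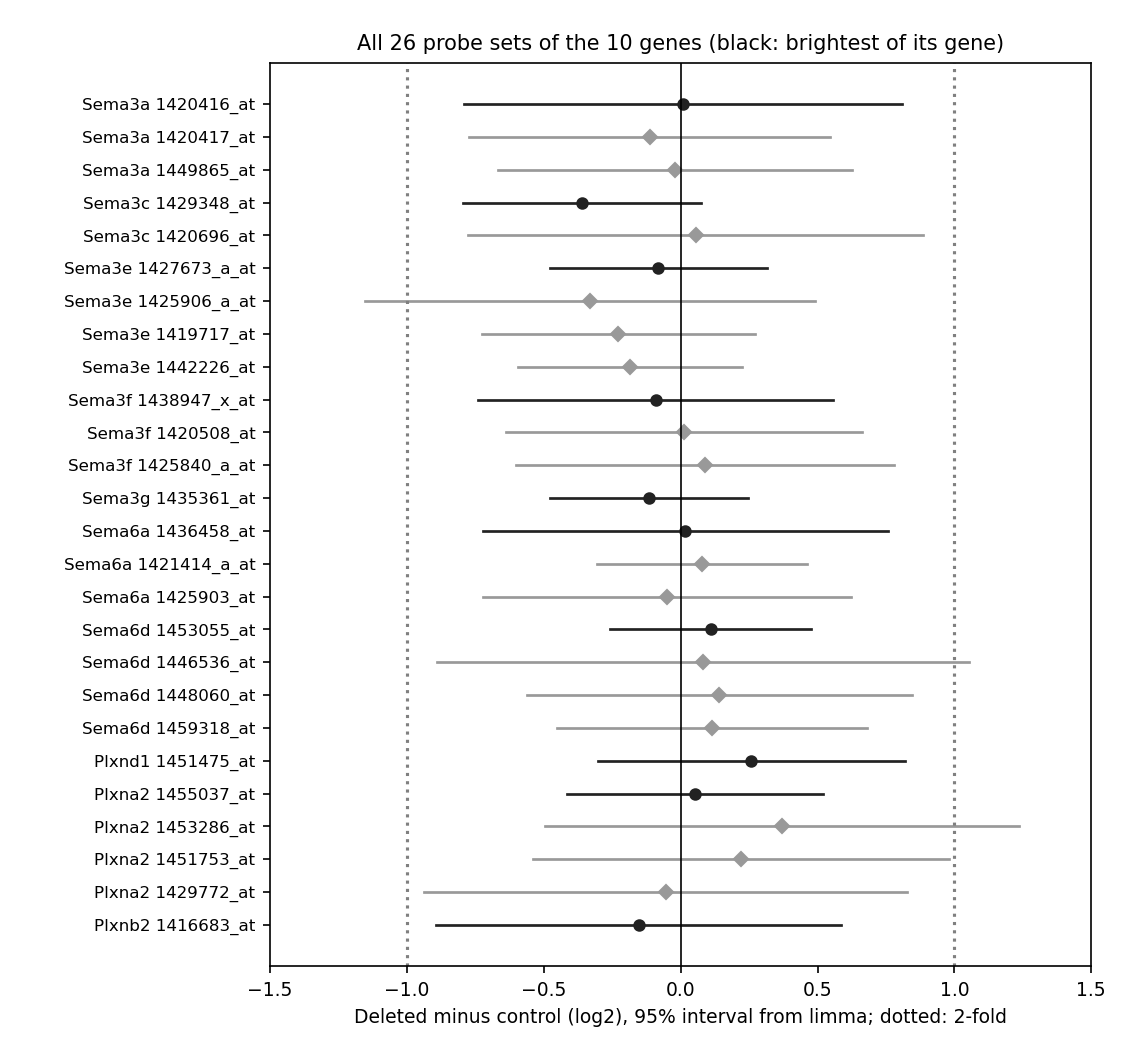
Difference between deleted and control arrays (log2, horizontal axis) for each of the 26 probe sets of the 10 genes, with its 95% interval from limma, the brightest probe set of a gene in black and the others in grey. Every interval crosses 0, and 3 grey ones, of Sema3e, Sema6d and Plxna2, reach past the dotted lines of a 2-fold change.

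Single arrays moved several of the 10 genes at once. Control replicate 3 was the highest array for 5 genes, Sema3c, Sema3e, Sema3f, Sema3g and Plxnb2, and the lowest for Sema6d and Plxnd1. Deleted replicate 1 was the highest for 4, Sema3a, Sema6d, Plxnd1 and Plxna2. Over all genes control replicate 3 was the highest array for 26.9% and the lowest for 22.4%, and deleted replicate 1 the highest for 23.7%, so both arrays stood out in general. Among the 26 probe sets control replicate 3 held the highest value of 9 and the lowest of 9, beside 22.0% and 25.9% of all probe sets. For Sema3c it was the highest array on 1 probe set and the lowest on the other, and for Sema6d the highest on 1 and the lowest on 3. In this array macrophage markers were at 0.79 and epithelial markers at 0.22, the highest averages of the 6 arrays, and endothelial markers at -0.28, the lowest. It also had the widest gap between the 3′ and 5′ ends of control transcripts, 1.31 for Gapdh and 1.67 for beta-actin, against 0.75 to 1.02 and 0.99 to 1.29 on the others, a measure that grows as RNA is degraded or copied incompletely. The part of these features in the values of control replicate 3 was not tested. With 1 array left out in turn, 6 of the 10 genes changed the sign of their difference at least once, and 4 did not, namely Sema3c, Sema3g, Sema6d and Plxnd1.

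**Figure D3:**
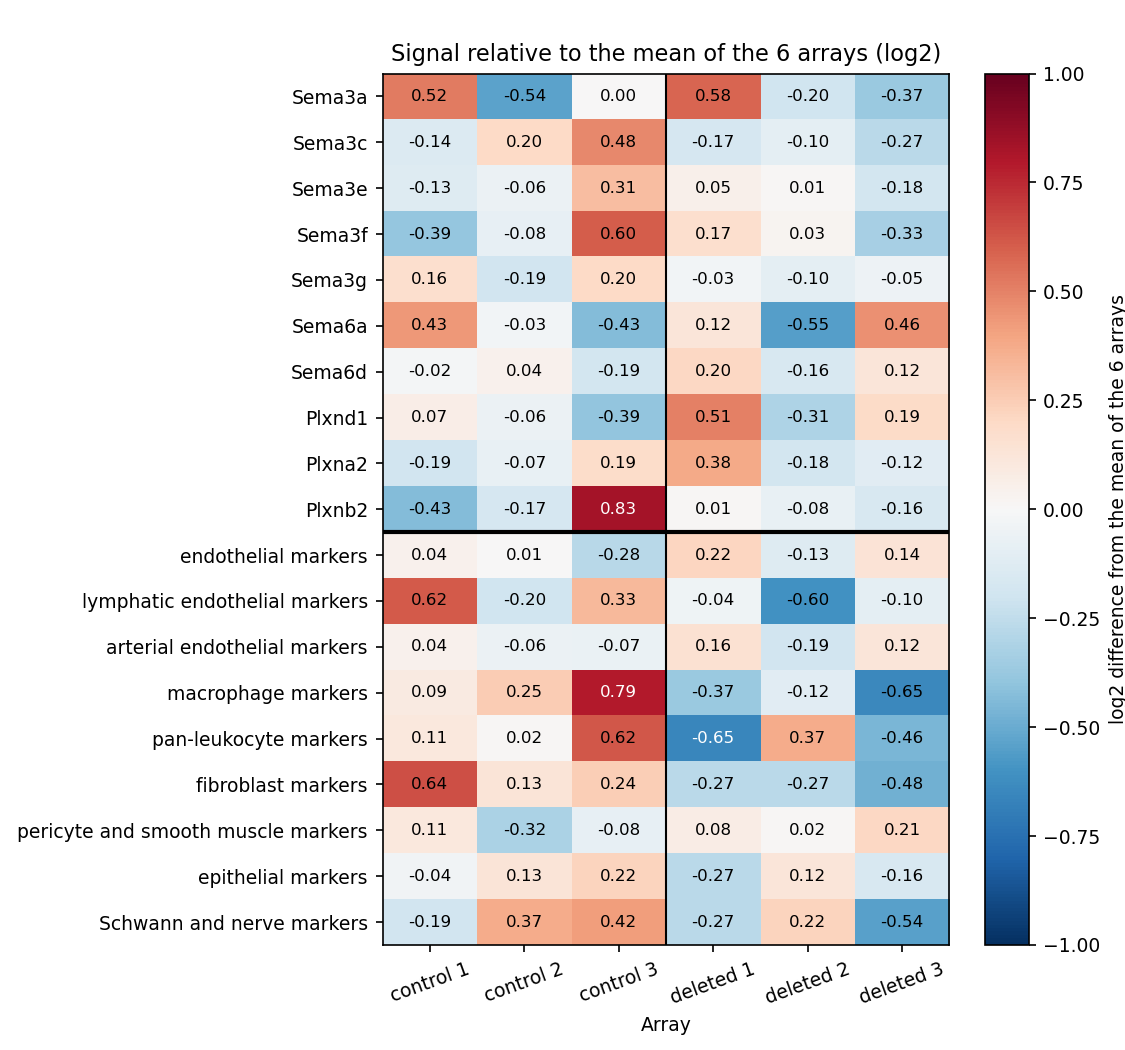
Signal of each of the 10 genes (top rows) and mean signal of lists of cell type markers (bottom rows) on each array (columns), as the log2 difference from the mean of the 6 arrays, in red above and in blue below it. Plxnb2 at 0.83 and macrophage markers at 0.79 peak in control replicate 3, where endothelial markers are lowest at -0.28, and no row of the 10 genes separates the first 3 columns from the last 3.

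The neuropilins, the co-receptors of class 3 semaphorins, were bright and differed by very little at their brightest probe sets. Nrp1 read 13.76, 13.66 and 13.58 in control and 13.52, 13.70 and 13.73 in deleted replicates, which differed by -0.02 (95% interval -0.34 to 0.31). Nrp2 read 12.46, 12.51 and 12.62 in control and 12.63, 12.37 and 12.57 in deleted replicates, which differed by -0.01 (95% interval -0.34 to 0.32). Both intervals lay within a 1.5-fold change on either side. The signs turned with single arrays left out. The other Nrp1 probe sets differed by -0.06 to 0.12 and those of Nrp2 by -0.06, 0.17 and 0.27, and for the last pair the intervals, -0.46 to 0.80 and -0.14 to 0.68, reached past a 1.5-fold change.

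Of the other genes of the pathway, 42 of the 43 listed were measured, namely 13 semaphorins, 6 plexins, both neuropilins and 21 effectors that act below plexins. Their median difference was -0.01, with 22 lower and 20 higher. With limma none reached an adjusted p under 0.05 and 3 had an unadjusted p under 0.05, Sema4a, Sema5a and Rnd1, which is 3 of 42 beside 1.79% of all genes. The groups did not overlap for 4 of the 42, Sema4a, Sema4f, Sema4g and Sema5a, beside 6.07% of all genes. For Sema4a, Sema4f and Sema4g the lowest control and highest deleted values nearly touched, at 8.91 and 8.90, 4.989 and 4.986, and 7.78 and 7.77. Sema4f was named after its values were seen and differed by only -0.12 at a dim probe set.

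Sema5a, a membrane semaphorin with thrombospondin repeats, read 8.08, 8.03 and 8.13 in control and 8.55, 8.34 and 8.64 in deleted replicates. Every deleted array exceeded every control array, and the difference was 0.43 with an SE of 0.14 and a 95% interval from 0.10 to 0.76. The unadjusted p from limma was 0.0182 and the adjusted p 0.9999. The other 3 Sema5a probe sets differed by 0.00, 0.16 and 0.01, with overlapping groups.

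Sema4a, a membrane semaphorin known from immune cells as well as endothelium, read 8.91, 9.04 and 9.19 in control and 8.90, 8.56 and 8.21 in deleted replicates. The highest deleted array reached almost to the lowest control array. The difference of -0.49 had a 95% interval from -0.97 to -0.01, an unadjusted p of 0.0451 and an adjusted p of 0.9999 from limma, and a second probe set differed by -0.21. Sema4g, of the same class, read 7.78, 7.90 and 8.72 in control and 7.77, 7.77 and 7.59 in deleted replicates. Its difference of -0.42 shrank to -0.13 without control replicate 3, and Sema4a shrank to -0.32 without deleted replicate 3. Pan-leukocyte markers ran from 0.02 to 0.62 in control and from -0.65 to 0.37 in deleted arrays, and macrophage markers were lower in all deleted arrays, as given above, and their part in these differences was not tested.

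Among the other plexins, Plxna3 had the largest difference, at -0.48 with a 95% interval from -0.997 to 0.03, and its second, dimmer probe set differed by -0.35, without overlap of the groups. It read 7.29, 7.68 and 8.06 in control and 7.02, 7.20 and 7.37 in deleted replicates, so that only deleted replicate 3 overlapped the controls. Its difference was -0.29 without control replicate 3 and -0.67 without control replicate 1, where limma gave an unadjusted p of 0.0146 and an adjusted p of 0.9885. Plxnb1, like Plxnb2 a receptor of class 4 semaphorins, read 7.86, 8.42 and 9.70 in control and 8.99, 8.59 and 8.08 in deleted replicates. Control replicate 3 was again the highest array, as for Plxnb2, and the difference of -0.11 turned to 0.41 without it. Plxna1 differed by -0.07, Plxna4 by 0.05, Plxnb3 by 0.14 and Plxnc1 by -0.23, all with overlapping groups, and the sign of each of these 4 turned with at least 1 array left out. Plxna4 and Plxnc1 each had a dimmer probe set without overlap, which differed by 0.25 and 0.46, while other Plxnc1 probe sets ran from -0.17 to 0.54.

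Among effectors the largest difference was that of Rnd1, a GTPase that binds plexins and loosens cell adhesion. It read 9.83, 9.54 and 10.01 in control and 10.53, 9.89 and 10.78 in deleted replicates, with deleted replicate 2 between the controls. The difference was 0.61 with a 95% interval from 0.01 to 1.21, an unadjusted p of 0.0483 and an adjusted p of 0.9999 from limma, and it was 0.42 without deleted replicate 3. Tiam1, an activator of Rac, differed by -0.44 with a 95% interval from -0.91 to 0.02, and its dimmer probe sets by -0.62 and 0.07. Gipc1, an adaptor that binds neuropilin-1 and plexin D1, differed by 0.34 with a 95% interval from -0.07 to 0.74, and by 0.20 without deleted replicate 1.

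**Figure D4:**
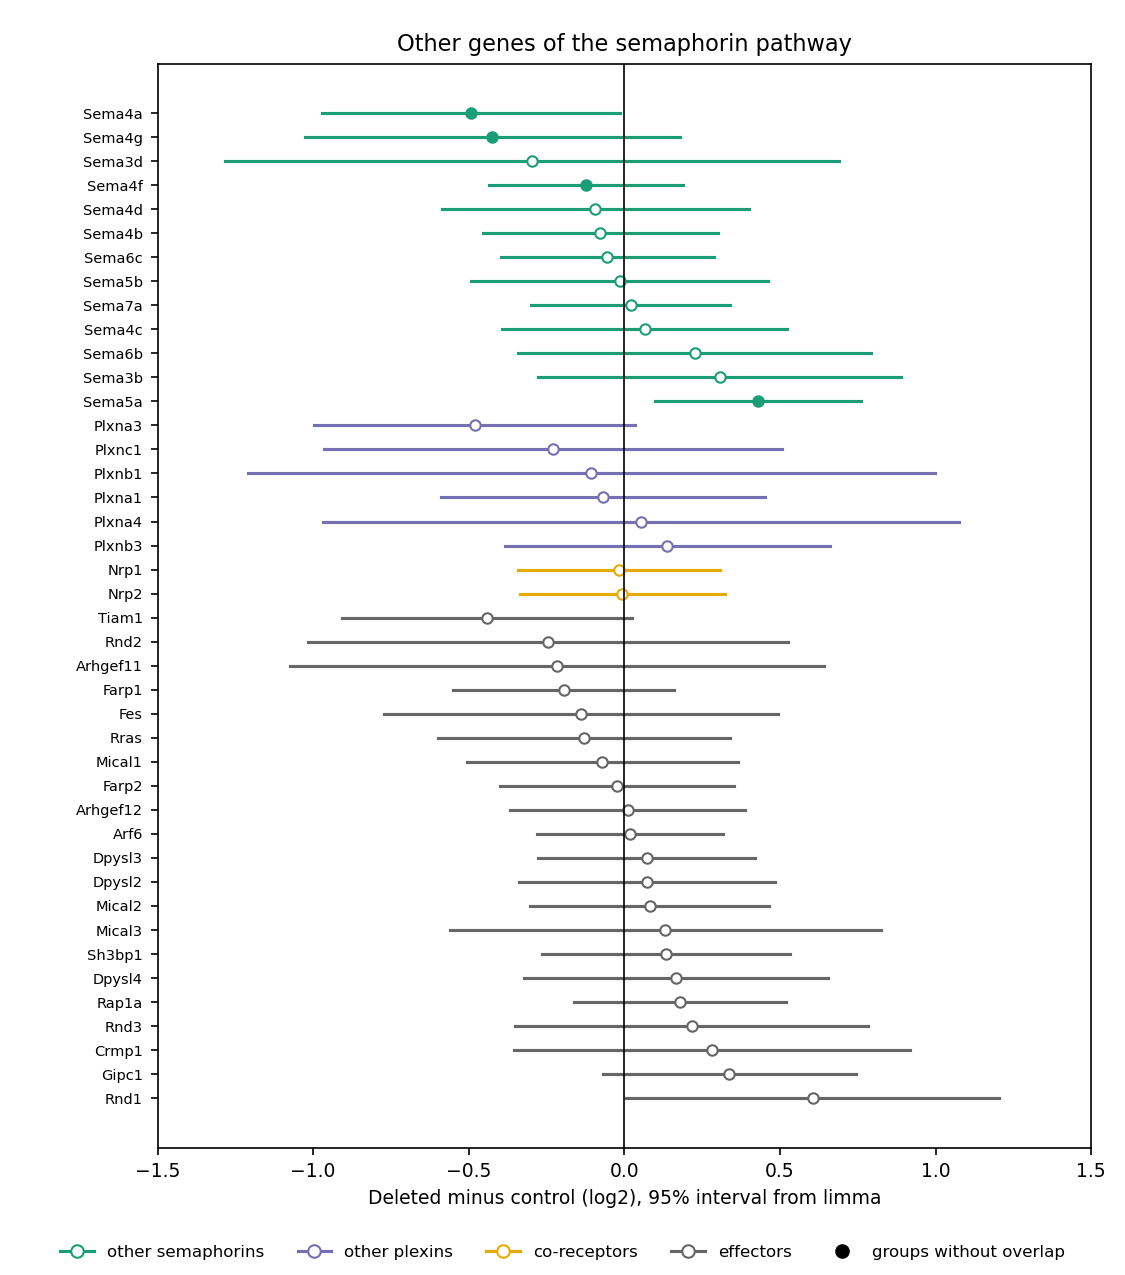
Difference between deleted and control arrays (log2, horizontal axis) with its 95% interval from limma for the 42 other measured genes of the pathway, in green for semaphorins, purple for plexins, yellow for neuropilins and grey for effectors. Filled points mark the 4 genes whose groups do not overlap, Sema4a, Sema4f, Sema4g and Sema5a, and both neuropilins lie at 0.

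What the 10 genes share beyond their names was looked for in their promoters, taken from RefSeq on GRCm38.p6 as 250 bases before to 50 after a gene's start. Of the 10 genes, 8 were matched, with 10 promoters among them. Sema3a, Sema3c and Sema3e all lie on chromosome 5. The median GC content of the 10 promoters was 60.2%, beside 52.7% over 32851 promoters, and ranged from 41.3% for Sema3a to 75.7% for Sema3c. The letters GGAA, the core bound by Ets factors as a family, were searched on both strands and were found in 9 of 10 promoters, beside 96.0% of all promoters. The longer CCGGAA, which contains that core, was found in 0 of 10 beside 14.9% of all. These are matches of letters and not binding sites. The promoters of the pair of genes with the largest differences in either direction are shown on their gene's strand, with each GGAA (or TTCC, the same letters on the other strand) in capitals, Sema3c at chr5:17574566-17574865 (plus strand) and Plxnd1 at chr6:115994956-115995255 (minus strand).
Sema3c: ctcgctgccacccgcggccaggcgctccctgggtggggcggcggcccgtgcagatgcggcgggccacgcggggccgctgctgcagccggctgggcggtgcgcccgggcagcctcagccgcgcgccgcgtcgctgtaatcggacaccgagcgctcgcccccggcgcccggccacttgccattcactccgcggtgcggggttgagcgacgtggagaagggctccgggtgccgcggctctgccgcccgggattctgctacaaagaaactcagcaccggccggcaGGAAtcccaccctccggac
Plxnd1: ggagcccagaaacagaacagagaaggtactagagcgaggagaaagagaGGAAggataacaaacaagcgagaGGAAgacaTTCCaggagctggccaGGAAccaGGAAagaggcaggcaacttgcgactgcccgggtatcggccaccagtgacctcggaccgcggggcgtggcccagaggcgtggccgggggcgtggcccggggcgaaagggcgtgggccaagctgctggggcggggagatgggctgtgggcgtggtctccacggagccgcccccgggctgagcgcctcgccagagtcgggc
The Sema3c promoter held 1 match and the Plxnd1 promoter 5.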

How the data were processed

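RNA from 6 sorted samples was hybridized to Affymetrix mouse genome arrays. The deposited table holds log2 values that the authors made by Robust Multichip Average (RMA). RMA subtracts background, sets arrays to a common distribution and combines probes into probe sets. No version of it is given in the sources used here. RMA narrows differences of dim probe sets. Of 45101 probe sets, 64 that serve as array controls were dropped, leaving 45037 for the test with no filter, of which 34945 had 1 gene named, 932 several and 9160 none. Gene numbers of 34741 were matched to RefSeq for symbols. Array medians lay between 7.02 and 7.07.

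Groups were compared by a two-sided linear model of limma 3.58.1 (R 4.3.3) with moderated variances, fitted to all 6 arrays without covariates, with Benjamini-Hochberg adjustment over all tested probe sets. The number of arrays limits precision. An exact permutation test of 3 against 3 gives no p below 0.1 and was not used. Each sample carries its own identifier, but pooling of mice is not stated, so p-values measure the spread between these samples. The fit was tested on simulated data. The genes, pathway and marker lists and the rule for named genes (the 10 genes, the neuropilins and other plexins, and the 3 largest differences among other semaphorins and among effectors) were chosen with earlier results of these data known. Lists were described by counts and medians without a test. The alternatives were a signal filter, other priors, array weights, scaling, blocks, unmoderated tests, other ways to represent a gene, other thresholds and leaving out each array. Identical values made up at most 0.218% between any pair of arrays.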

Additional observations from a re-analysis of the deposited data

How the results depend on the processing

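None of the 10 genes and none of the 42 other pathway genes passed an adjusted p under 0.05 in any of the 17 other settings run, nor at an adjusted p under 0.1 or with a change of over 2-fold at an unadjusted p under 0.05. At an unadjusted p under 0.05 with all arrays there were 0 of the 10 and 3 of the 42, and of the 10 Sema3c alone was under it in other settings. With array weights limma gave it an unadjusted p of 0.0285 and an adjusted p of 0.6234, and without control replicate 1 an unadjusted p of 0.0244 and an adjusted p of 0.9885. The medians moved in all settings by less than the within-group SD of a list's median on single arrays. That SD was 0.156 for the 10 genes and 0.0885 for the others. The largest moves came close to it and turned the sign of the median. With 1 array left out the medians ran from -0.14 to 0.05 for the 10 genes and from -0.04 to 0.06 for the others. With array weights they were 0.078 for the 10 genes and 0.077 for the others. With the fixed replicate block described below the median of the 10 genes was 0.11. With 1 array left out, 11.9% to 19.1% of all genes had groups without overlap. Of the 10 genes 0 to 3 did so, with 3 without deleted replicate 2 (Sema3c, Sema6d and Plxnd1), where the share of all genes was 19.1%. Of the 42 there were 5 without deleted replicate 1 (12.6% of all genes) to 9 without control replicate 1 (16.5%). Of the 42 there were also 1 with arrays centred on their medians and 2 with the most variable probe set. For these settings the share of all genes was not taken, so these counts cannot be set against a background. Only Sema6d and Plxnd1 of the 10 kept their sign in all settings, though Sema6d was 0.011 with the fixed block described next. Sema3c was -0.16 there and -0.15 as the mean of its probe sets.

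A number in the titles is shared by a control and a deleted sample for 2 of the 3 replicates, and what it stands for is not stated. Deviations correlated at 0.17 and -0.02 within these pairs. No correlation was computed for pairs without a shared number, so these values do not show what the samples share. A fixed replicate block, which rests on these pairs alone, gave -0.42 for Sema6a, 0.33 for Sema3f, 0.27 for Plxnb2, 0.13 for Sema3e, 0.65 for Plxnb1, -0.69 for Plxna4, 0.16 for Plxna1, 0.017 for Nrp2, -0.15 for Cdh5, -0.051 for Epcam and -0.083 for Ets2, all of the opposite sign, and a random replicate block -0.013 for Sema6a.

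Other settings turned a sign as well. Array weights gave 0.091 for Sema3g, 0.065 for Plxnb2, 0.24 for Plxna1, -0.21 for Plxna4, 0.071 for Plxnb1, 0.033 for Nrp2, 0.17 for Lyve1, -0.054 for Epcam and -0.00018 for Cdh5. The most variable probe set gave 0.056 for Sema3c, 0.089 for Sema3f, 0.17 for Nrp2, 0.12 for Nrp1, 0.55 for Plxnc1, 0.094 for Sema4f and -0.11 for Epcam. The mean of a gene's probe sets gave -0.042 for Sema3a, 0.0033 for Sema3f, 0.010 for Nrp1, 0.094 for Nrp2 and 0.14 for Plxnc1, and centring gave 0.0094 for Nrp2. With 1 array left out, the range was -0.28 to 0.27 for Sema3a, -0.17 to 0.054 for Sema3e, -0.31 to 0.19 for Sema3f, -0.21 to 0.30 for Sema6a, -0.12 to 0.16 for Plxna2, -0.41 to 0.22 for Plxnb2, -0.059 to 0.048 for Nrp1, -0.060 to 0.069 for Nrp2, -0.25 to 0.13 for Plxna1, -0.44 to 0.36 for Plxna4, -0.51 to 0.41 for Plxnb1, -0.10 to 0.27 for Plxnb3, -0.46 to 0.091 for Plxnc1, -0.078 to 0.38 for Cdh5, -0.74 to 0.015 for Prox1, -0.063 to 0.21 for Epcam and -0.039 to 0.081 for Ets2. The cause of these turns was not tested.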
